A study of Mus musculus with 8 samples.

Results

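The myogenic bHLH factors (Myf5, Myod1, Myog and Myf6) and the MEF2 factors (Mef2a, Mef2b, Mef2c and Mef2d) are transcription factors that work together in forming skeletal muscle and switching on its contractile genes. They were followed here in the mouse tongue bud by taking every probe set whose platform annotation names exactly 1 gene, that gene being 1 of these 8. This gave 8 of 18193 named genes and 20 of the 34945 probe sets that name 1 gene, 5 of them for the myogenic factors and 15 for the MEF2 factors. A further probe set names Mef2b together with Borcs8 and was left out by that rule.

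RNA came from tongue buds of C57BL/6J embryos at embryonic day 13.5, with 4 one-colour Affymetrix arrays in each group. Mutant embryos carried Wnt1-Cre together with Alk5 fl/fl, and control embryos carried Alk5 fl/fl without the Cre. Both groups therefore hold the floxed allele of Alk5, the type I TGF-beta receptor whose gene symbol is Tgfbr1, and no group holds Wnt1-Cre alone, so losing the receptor and carrying the Cre cannot be told apart here. The series asked how loss of TGF-beta signalling in cranial neural crest cells affects the muscle precursors beside them. Wnt1-Cre acts in neural crest cells, while tongue muscle arises from somites, so the muscle lineage is not one in which this Cre is known to act.

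The 4 myogenic factors are basic helix-loop-helix proteins that pair with E proteins such as Tcf3 and Tcf12 and bind the E-box. Myf5 and Myod1 act early, in determination, and Myog and Myf6 act mainly in differentiation. MEF2 proteins are MADS-box factors that bind A/T-rich sites, have little myogenic activity alone and work together with the bHLH factors. MEF2 genes are not muscle-specific, and Mef2c is also active in endothelium, neurons, cartilage and neural crest mesenchyme.

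The array medians lay between 5.96 and 6.01 on the log2 scale, and Pearson correlations across probe sets were 0.995 to 0.998 among mutants, 0.992 to 0.997 among controls and 0.990 to 0.996 between the groups. All 3 Tgfbr1 probe sets were higher in mutants. The brightest read 12.36 to 12.42 in mutants and 11.89 to 12.12 in controls (log2 change 0.39, SE 0.061, limma adjusted p = 0.0080), so it does not check the deletion, since the place of its probes relative to the floxed part is not stated in the labels, and every direction rests on the labels. On control 3, 3 Y-linked genes averaged a log2 value of 3.09, against 8.44 to 8.73 on the other 7 arrays. The 10 markers of differentiated muscle were all above the array medians on average, and their mean log2 value ran from 10.85 to 11.20 in mutants and from 11.66 to 11.97 in controls. Whether the buds came from different litters is not given in the labels, so p-values measure the spread between these samples only, and the number of arrays limits the precision.

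The groups were tested by limma across 45037 probe sets, leaving out Affymetrix controls, and a probe set was called at a Benjamini-Hochberg adjusted p of 0.05. Of the 20 member probe sets, 5 fell and 0 rose, while 4.43% of all probe sets were called, 2.42% lower and 2.01% higher. The 5 were those of Myog and Myf6, a pair of Mef2c probe sets and 1 Mef2d probe set. Of the 20, 18 had a log2 difference below 0, against 51.6% of all probe sets. The median of the 20 was −0.24, against −0.0044 over all probe sets. Several of the 18 changed sign with 1 array left out, and sets that read the same gene are not independent. In 7 of the 20 all mutant values lay below all control values, which was so for 5.98% of all probe sets, and in 0 of the 20 did they lie above, against 6.83% of all probe sets. In whole-bud RNA fewer cells of a type and less RNA per cell cannot be told apart.

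**Figure D1:**
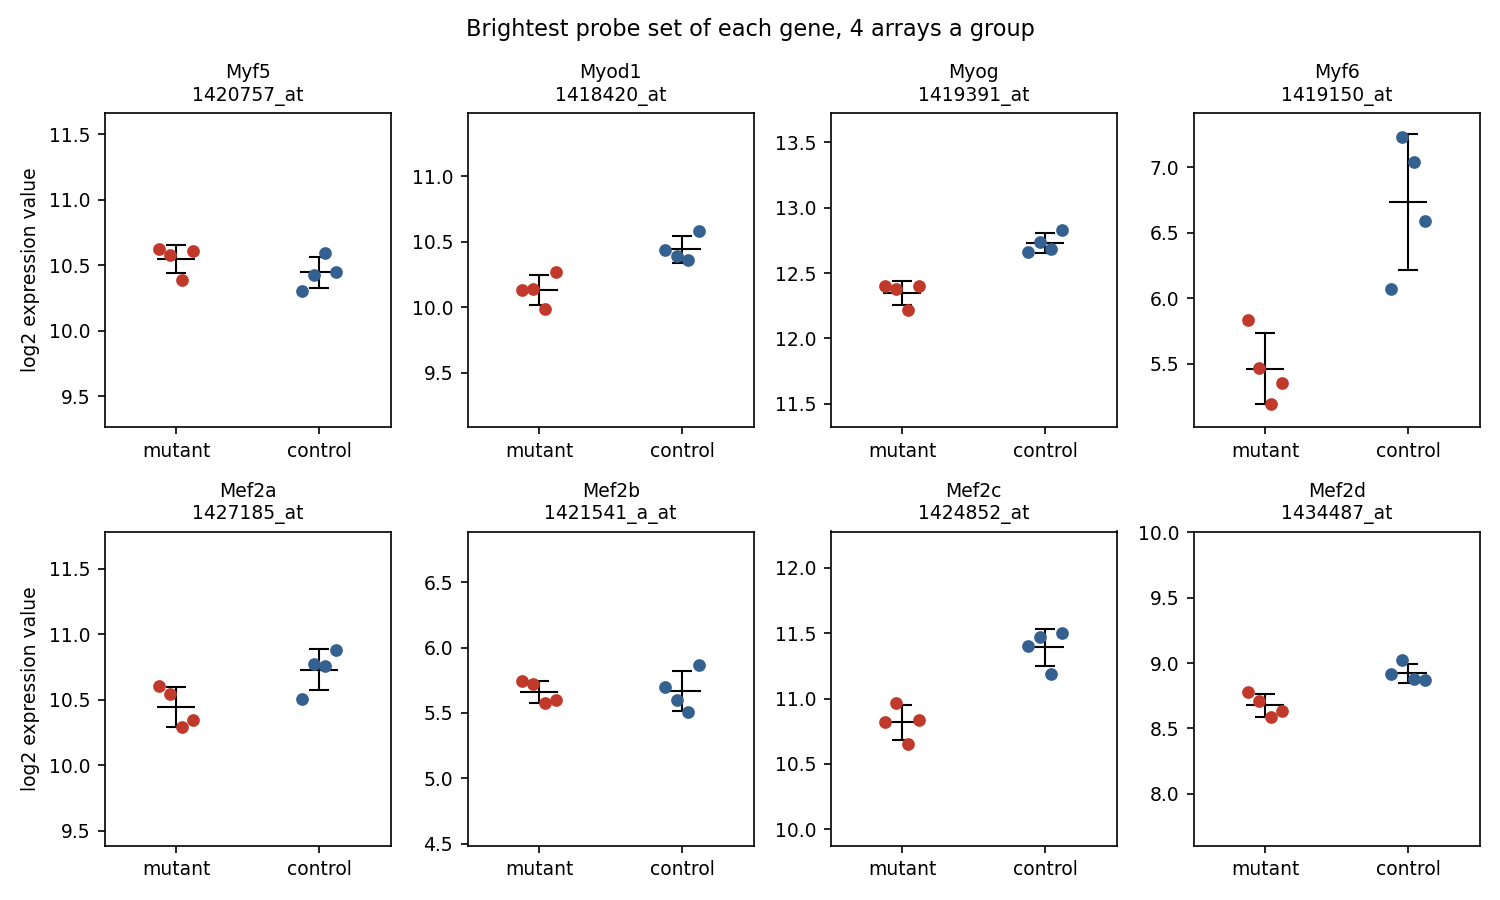
Log2 expression values (vertical axes, each spanning the same range but starting at a different level) of the brightest probe set of each of the 8 genes, with 4 mutant arrays (red) beside 4 control arrays (blue) and bars for mean ± SD. Myod1, Myog, Myf6, Mef2c and Mef2d show no overlap between the groups, and Myf5, Mef2a and Mef2b overlap.

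Among the determination factors, Myf5, the first of the family to appear in most muscle precursors, did not pass. Its probe set, 1420757_at, read 10.62, 10.58, 10.39 and 10.61 on mutants 1 to 4, against 10.30, 10.43, 10.60 and 10.45 on controls 1 to 4. The groups overlapped, since mutant 3 lay below 3 controls and control 3 above 2 mutants. The log2 difference was 0.10 (95% confidence interval −0.07 to 0.28, adjusted p = 0.565), so a fall of more than 0.07 or a rise of more than 0.28 lies outside the interval.

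Myod1, which can turn fibroblasts into muscle, read 10.13, 10.14, 9.98 and 10.27 on mutants 1 to 4 with its bright probe set 1418420_at, and 10.43, 10.39, 10.36 and 10.58 on controls 1 to 4. Every mutant value lay below every control value, the nearest being mutant 4 and control 3. The log2 difference of −0.31 (SE 0.076, interval −0.48 to −0.14) missed the threshold over all probe sets at an adjusted p of 0.0538 and passed over the 18193 genes taken with 1 probe set each, at 0.0282. In that gene fit 6 of the 8 leave-one-out fits lost the call. They were those without mutant 1 (log2 change −0.31), mutant 2 (−0.31), mutant 3 (−0.26), control 1 (−0.31), control 2 (−0.33) and control 4 (−0.26). The call was also lost with its probe sets averaged (−0.19, adjusted p = 0.153), without controls 1 and 3 together (−0.36, 0.0703) and without moderated variances (0.0708). The other Myod1 probe set, 1447675_x_at, read between 2.91 and 3.29 in mutants and between 3.13 and 3.38 in controls, far below the array medians, and differed by −0.08 (adjusted p = 0.743).

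Myog, encoding the myogenin needed for precursors to fuse and mature, fell. Its probe set, 1419391_at, read 12.40, 12.38, 12.22 and 12.40 on mutants 1 to 4, against 12.66, 12.73, 12.68 and 12.83 on controls 1 to 4. Mutants 1, 2 and 4 lay close together, mutant 3 lay lower, and the groups did not overlap. The log2 change was −0.38 (SE 0.064, adjusted p = 0.0117), which is 1.30-fold lower, and the call held in all 8 leave-one-out fits (−0.40 to −0.33).

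Myog is itself known as a meeting point of both families, since its proximal promoter is a textbook example of a region bound by bHLH and MEF2 factors together. The 250 bases before its start (RefSeq, GRCm38.p6, chr1:134289754-134290003, plus strand) are shown for that reason, with capitals marking each E-box, CANNTG, and each match to a MEF2-like core, CTANNNNTA, searched on both strands.
Myog promoter: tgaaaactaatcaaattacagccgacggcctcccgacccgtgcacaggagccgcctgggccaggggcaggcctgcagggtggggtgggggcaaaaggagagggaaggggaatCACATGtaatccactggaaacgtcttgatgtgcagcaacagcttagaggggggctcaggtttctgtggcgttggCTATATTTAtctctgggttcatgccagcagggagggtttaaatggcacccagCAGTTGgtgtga
Counted from the start of the gene, this window holds E-boxes that begin at −138 and −12 and a MEF2-like match that begins at −64. Of 32851 promoter windows of the same length, 66.2% hold an E-box, 19% a MEF2-like match and 13% both, so a match by itself is common. Windows were found for 6 of the 8 genes. The Myf5 window held 0 E-boxes and 2 overlapping MEF2-like matches, those of Mef2a and Mef2d held 0 of either motif, and that of Mef2b held 1 E-box. Of the 3 Mef2c windows, 1 held 2 E-boxes, 1 held an E-box and a MEF2-like match, and 1 held neither. The MEF2-like pattern leaves its middle bases open, so a match need not be A/T-rich. Those of Myf5 and Mef2c hold G or C there.

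Myf6, encoding the myogenic factor MRF4, showed the largest change of the 20 probe sets. Its probe set, 1419150_at, read 5.83, 5.47, 5.19 and 5.35 on mutants 1 to 4, against 6.07, 7.23, 7.04 and 6.59 on controls 1 to 4. The groups did not overlap, but control 1, the lowest control, lay closer to mutant 1 than to any other control. The log2 change was −1.27 (SE 0.24, interval −1.81 to −0.74, adjusted p = 0.0183), or 2.42-fold lower. The mutant mean of 5.46 lay below the array medians, the control mean of 6.73 above them, and no detection call was used, so the fold holds for the measured signal only. Over all probe sets the call was lost without mutant 2 (−1.28), mutant 3 (−1.18), mutant 4 (−1.24) or control 3 (−1.17), at adjusted p-values of 0.0507 to 0.0598. Over genes it held in all 8 leave-one-out fits. Without moderated variances it was lost in both fits, at an adjusted p of 0.0912 over probe sets and 0.0589 over genes.

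**Figure D2:**
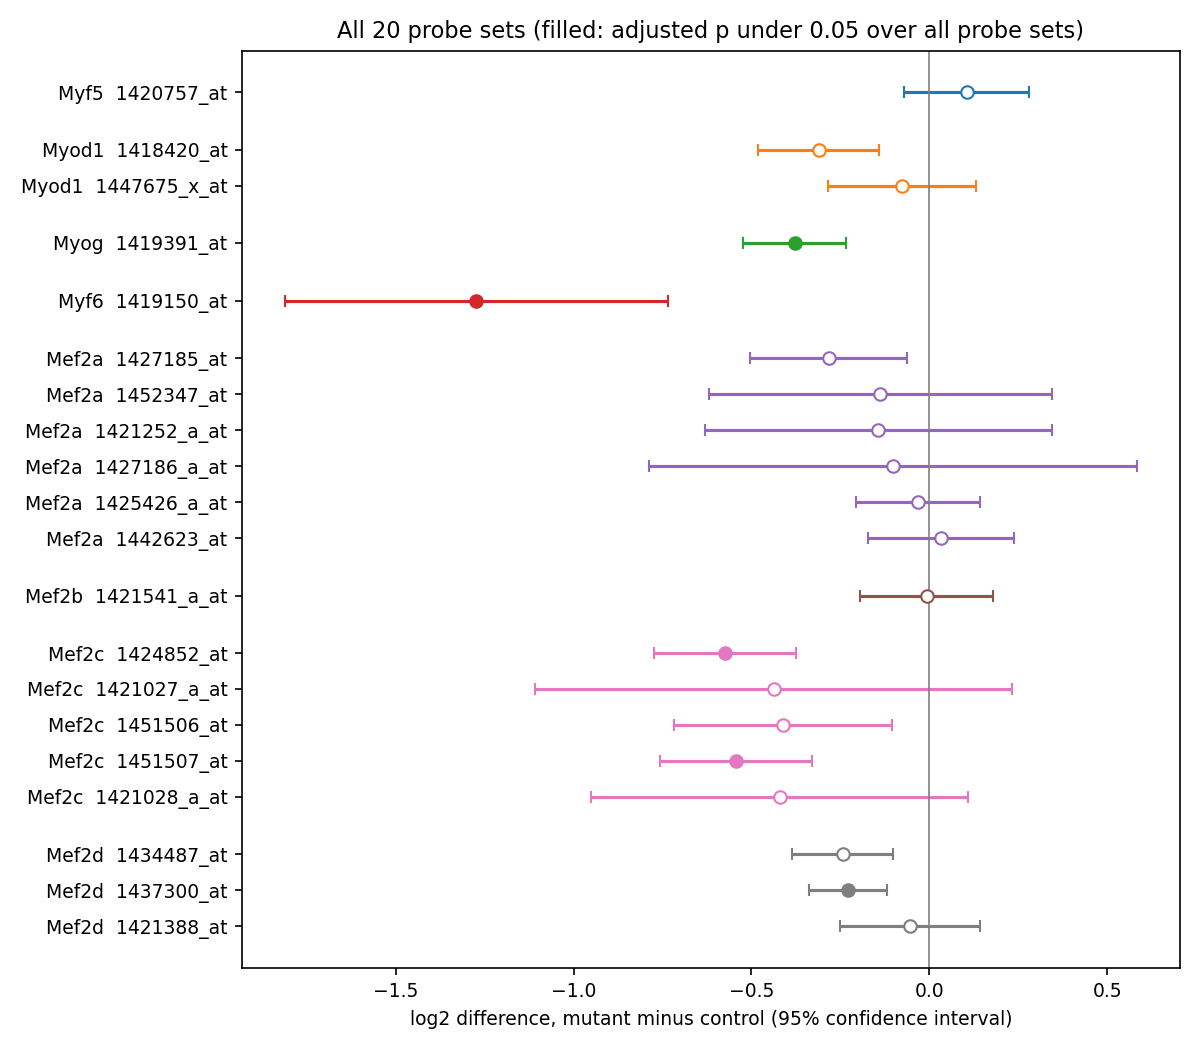
Log2 difference, mutant minus control, of each of the 20 probe sets (horizontal axis, points with 95% confidence intervals), grouped by gene down the page with the brightest probe set of a gene first. Filled points passed an adjusted p of 0.05 over all probe sets: Myog, Myf6, Mef2c 1424852_at and 1451507_at, and Mef2d 1437300_at.

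Mef2c, the MEF2 gene most closely tied to embryonic muscle and heart, was lower on all 5 of its probe sets, by −0.57 to −0.41, and 2 of these passed. The brightest set, 1424852_at, read 10.82, 10.97, 10.65 and 10.83 on mutants 1 to 4, against 11.40, 11.47, 11.19 and 11.50 on controls 1 to 4. Mutant 3 was the lowest mutant and control 3 the lowest control, and no values overlapped. The log2 change was −0.57 (SE 0.089, adjusted p = 0.0075), 1.49-fold lower, and the call held in all 18 alternatives tried on that probe set.

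The second Mef2c set to pass, 1451507_at, read 9.17, 9.41, 9.22 and 9.46 on mutants 1 to 4, against 9.99, 9.97, 9.67 and 9.80 on controls 1 to 4, a change of −0.54 (SE 0.095, adjusted p = 0.0134). It kept its call in all 8 leave-one-out fits and lost it without moderated variances (adjusted p = 0.0605). The set 1451506_at differed by −0.41 (interval −0.72 to −0.11, adjusted p = 0.143), with mutant 4 at 10.77 above control 3 at 10.67. For 1421027_a_at the values were 9.96, 10.47, 10.85 and 10.996 on mutants 1 to 4, against 11.62, 11.36, 10.54 and 10.50 on controls 1 to 4. Here the groups overlapped widely, because mutants 3 and 4 read above controls 3 and 4. That set differed by −0.44 with an interval of −1.11 to 0.23 (adjusted p = 0.519), and 1421028_a_at by −0.42 with an interval of −0.95 to 0.11 (adjusted p = 0.414). With the mean of all 5 sets as the value of the gene, Mef2c was −0.48 and did not pass (adjusted p = 0.0891 over genes).

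Mef2d, a MEF2 gene expressed in many tissues, had 1 of 3 probe sets called. That set, 1437300_at, read 7.92, 7.95, 7.99 and 7.88 on mutants 1 to 4, against 8.17, 8.19, 8.14 and 8.14 on controls 1 to 4. Its replicates lay closer together than those of the other member sets, with SDs of 0.047 in mutants and 0.024 in controls, and the groups did not overlap. The log2 change was −0.23 (SE 0.049, adjusted p = 0.0323), and the call was lost in all 8 leave-one-out fits (−0.25 to −0.21, adjusted p of 0.0567 to 0.096).

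The brightest Mef2d set, 1434487_at, read 8.78, 8.71, 8.58 and 8.63 on mutants 1 to 4, against 8.91, 9.02, 8.88 and 8.87 on controls 1 to 4. These groups did not overlap either. The difference of −0.24 (SE 0.063) missed the threshold over all probe sets (adjusted p = 0.0671) and passed over genes (0.0348), where 6 of the 8 leave-one-out fits lost it. Those were the fits without mutant 2 (−0.25), mutant 3 (−0.21), mutant 4 (−0.23), control 1 (−0.25), control 2 (−0.21) and control 3 (−0.26). It was also lost with the probe sets averaged (−0.18, adjusted p = 0.054), without controls 1 and 3 together (−0.27, 0.0938) and without moderated variances (0.0599). The dimmest Mef2d set, 1421388_at, differed by −0.06 (interval −0.25 to 0.14, adjusted p = 0.817).

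Mef2a had 6 probe sets, and 0 of them passed. Its brightest, 1427185_at, read 10.61, 10.54, 10.29 and 10.35 on mutants 1 to 4, against 10.51, 10.78, 10.75 and 10.88 on controls 1 to 4. Control 1 lay below mutants 1 and 2, and the other controls lay above every mutant. The log2 difference was −0.28 (interval −0.50 to −0.06, unadjusted p = 0.0176, adjusted p = 0.166), and this was the only Mef2a set with an unadjusted p under 0.05 in limma. Over genes it passed in 1 fit, the one without control 1 (−0.36, adjusted p = 0.0395). The other 5 sets differed by −0.14 to 0.03.

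Mef2b, whose protein is best known from lymphoid cells, was represented by a single probe set, 1421541_a_at, with means below the array medians in both groups. It read 5.57 to 5.74 in mutants and 5.51 to 5.87 in controls. The difference of −0.01 (interval −0.20 to 0.18, adjusted p = 0.978) changed sign with repeated quantile normalization (0.011) and with arrays centred on their medians (0.0090), so no direction can be given.

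Whether probe sets of the same gene disagreed was tested on the difference between each other set and the brightest set, array by array. Over 16752 such differences from 9010 genes, 182 passed in limma (1.09%, of which 0.442% lower and 0.645% higher), and 0 of the 12 within Myod1, Mef2a, Mef2c and Mef2d did. In 1 of the 12, 1442623_at of Mef2a, all mutant values lay above all control values, and in 0 of the 12 below, against 5.07% and 3.67% of all differences. At an unadjusted p under 0.05 there were 2 of the 12, against 12.8% of all differences. These were 1442623_at of Mef2a, whose change lay 0.32 above that of the brightest set (SE 0.085, adjusted p = 0.143), and 1447675_x_at of Myod1, 0.23 above (SE 0.090, adjusted p = 0.316). Both read below the array medians. All 12 differences were positive with all arrays, but 6 of them changed sign in some leave-one-out fit, 3 in Mef2a, 2 in Mef2c and 1 in Mef2d, so no direction is given for those. The intervals, which reached −0.71 to 1.07 for 1427186_a_at of Mef2a, are too wide to show that the sets of a gene changed alike.

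The probe sets of a gene did differ in how they varied within groups. Of the 15 MEF2 sets, 5 had an SD above 0.25 in both groups: 1452347_at, 1421252_a_at and 1427186_a_at of Mef2a, and 1421027_a_at and 1421028_a_at of Mef2c. Their SDs ran from 0.29 to 0.65, against 0.024 to 0.24 for the other 10. On 1427186_a_at the values were 8.36, 8.98, 9.15 and 9.14 on mutants 1 to 4, against 9.72, 9.38, 8.62 and 8.32 on controls 1 to 4. In all 5 sets mutants 3 and 4 read above mutants 1 and 2, and controls 1 and 2 read above controls 3 and 4.

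That array order is the leading axis of spread within groups over the whole table, which held 46.5% of the variance left after each group's mean was removed. Over the 8 arrays, centred within groups, these 5 sets correlated with the axis at Pearson r of 0.91 to 0.99, and with each other at 0.88 to 0.99. The brightest Mef2a set ran the opposite way (r = −0.93), as did 1421388_at of Mef2d (r = −0.96), and the brightest Mef2c set followed the axis little (r = −0.17). Of all probe sets, 3.29% correlated with the axis above 0.9 and 1.77% below −0.9. The log2 difference between 3' and 5' control probe sets ran from −0.035 to 0.074 for Gapdh (r = 0.74 with the axis, centred within groups) and from 0.49 to 0.56 for actin (r = −0.38). The points are 8 arrays that share the axis by construction, and the part of RNA quality in these sets was not tested.

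**Figure D3:**
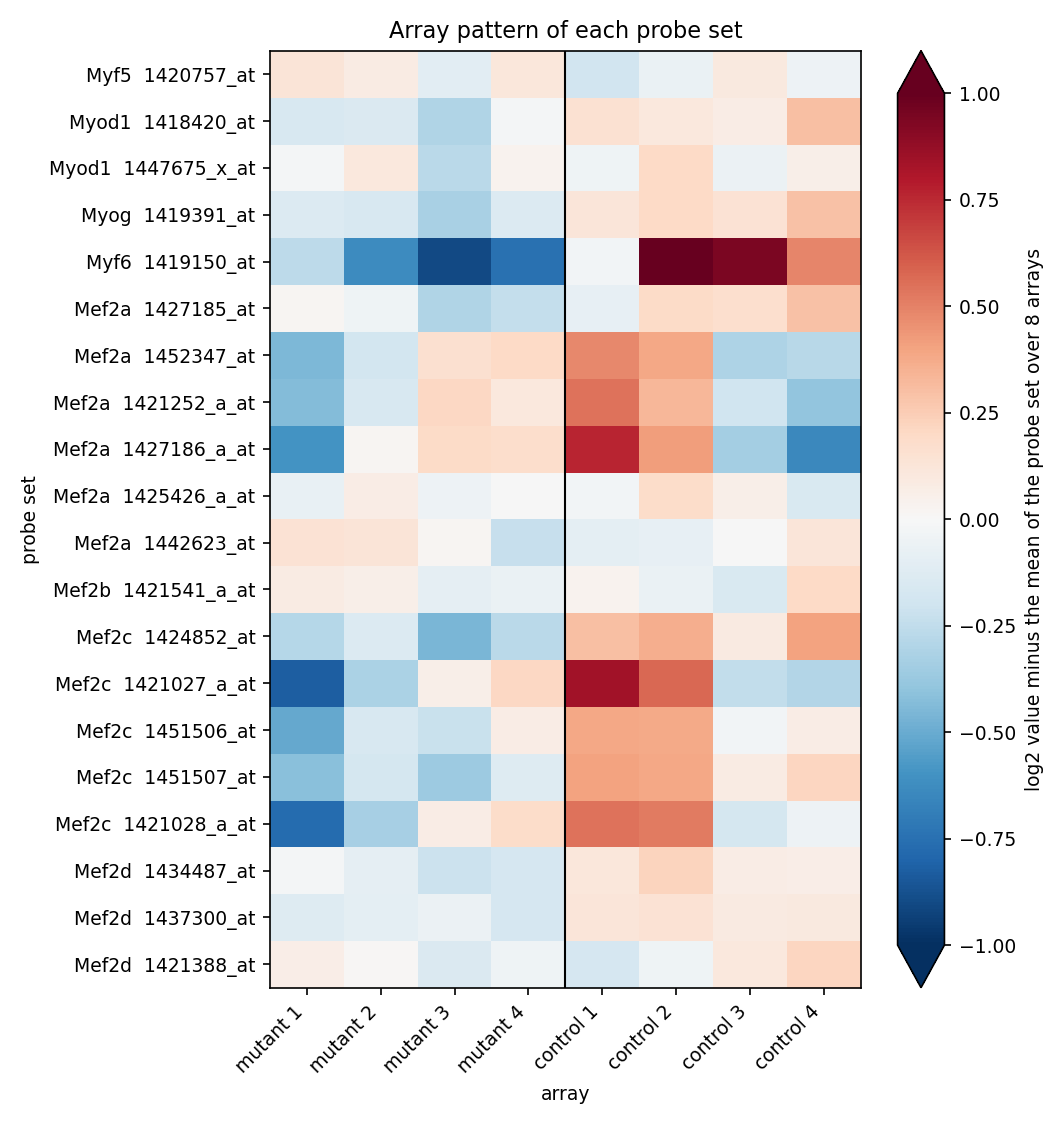
Log2 value of each of the 20 probe sets (rows) on each array (columns, mutants left of the line and controls right of it), minus the mean of that probe set over the 8 arrays; red is above that mean, blue below, and colours saturate at 1. Myog, Myf6 and the brightest Mef2c set part by group, while 3 sets of Mef2a and 2 of Mef2c are high on controls 1 and 2 and low on mutant 1.

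Because 1 gene past the threshold beside another that missed it does not show a difference, the changes of the 8 genes were compared pair by pair with their brightest probe sets. Each of the 28 pairs was tested on its array-by-array log2 ratio with an exact two-sided permutation test, whose smallest p with 4 arrays against 4 is 0.0286. In 14 pairs the ratio did not overlap between the groups and reached that p. It adjusts to 0.0571 over the 28 pairs, so 0 pairs passed after adjustment. With that smallest p, no pair could pass unless several more of the 28 had reached it. Pairs that share a gene are not independent, and the share of such ratios over other gene pairs was not computed. Of single genes, 8.87% had all mutant values below all control values and 8.92% had them above. Myf5 took part in 6 of the 14 pairs. Its change exceeded that of Myod1 by 0.42, of Myog by 0.48, of Myf6 by 1.38, of Mef2c by 0.68, of Mef2a by 0.39 and of Mef2d by 0.35. Such pairs were not particular to Myf5. The change of Mef2b, which was −0.01 itself, also exceeded those of Myod1, Myog, Myf6 and Mef2c without overlap. That of Myf6 lay below those of Mef2a and Mef2d without overlap.

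The change of Mef2c lay below that of Myod1 by 0.26 and below that of Mef2d by 0.33, without overlap. Myod1 and Myog differed by only 0.07 (exact p = 0.2). Myf6 lay 0.90 below Myog, with overlap between the groups (exact p = 0.0571), where the SD of that ratio was 0.22 in mutants and 0.51 in controls.

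The changes of the members were set beside those of the muscle that these factors build, as a description. The mean of the 10 markers of differentiated muscle changed by −0.74, with SDs of 0.16 in mutants and 0.15 in controls. Relative to that mean, the change of Myf5 was 0.84 higher, that of Mef2b 0.73, that of Mef2d 0.49 and that of Mef2a 0.45. That of Myod1 was 0.42 higher, that of Myog 0.36 and that of Mef2c 0.16, while that of Myf6 was −0.54, that is, lower. Over the 8 arrays Myog correlated with the marker mean at r = 0.99, and at 0.93 with the values centred within groups. For Mef2c these values were 0.97 and 0.79, for Mef2a 0.87 and 0.79, for Mef2d 0.91 and 0.54, and for Mef2b 0.21 and 0.52. For Myod1 they were 0.92 and 0.65, for Myf6 0.90 and 0.51, and for Myf5 −0.28 and 0.53.

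Myod1 and Myog followed each other from array to array, at r = 0.96 over the 8 arrays and 0.84 within groups. Among 12161 genes at or above the array medians (12162 for Mef2b), those most like Myod1 were Cacna1s, the calcium channel of skeletal muscle (r = 0.988), the co-chaperone gene Bag3 and Mcf2l. Those most like Myog were Ptgis, which encodes prostacyclin synthase (r = 0.999), Hjv, the hemojuvelin of muscle and liver, and Clu. Those most like Myf6 were the muscle cofactor gene Vgll2 (r = 0.995), Tmcc3 and Tac1. Those most like Mef2c were Cav3, the caveolin of muscle (r = 0.993), the kinase gene Dclk1 and Gpd1, and those most like Mef2d were Exoc6, Pcdhb3 and Reep1. For Myf5 they were H2-Ke6, Gucd1 and Macrod2, for Mef2a Cert1, Sec11a and Phc3, and for Mef2b Tax1bp1, Mmgt1 and Phf3. All these values of r are the highest in a search over 8 arrays and include the difference between the groups. Centred within groups they ran from 0.93 to 0.995.

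Partners and regulators of the 8 factors were read from the fit with 1 probe set a gene, in which 5.52% of 18193 genes were called lower and 4.2% higher. Here 5 of the 8 members were called, Myod1, Myog, Myf6, Mef2c and Mef2d, all lower. The lists below were drawn up with earlier results of these data known, so their counts are descriptions.

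Of 7 measured dimerisation partners and Id inhibitors, 4 rose and 0 fell, with a median of 0.24 against −0.01 over all genes. Id proteins lack a DNA-binding region and capture E proteins, which keeps bHLH factors from DNA. Id2 averaged 11.54 in mutants and 10.996 in controls (log2 change 0.54, SE 0.082, adjusted p = 0.0035). Id3 rose by 0.39 and Id1 by 0.33. Of the E protein genes, Tcf3 rose by 0.24, a call lost without mutant 3 (0.22), mutant 4 (0.22), control 2 (0.23) or controls 1 and 3 together (0.24).

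Of 20 other repressors, 3 rose and 3 fell. Snai2, a zinc-finger repressor of mesenchyme that can occupy E-boxes, rose by 0.60 (SE 0.052, adjusted p = 0.00025). Hdac5 and Hdac9, class II deacetylases that bind and silence MEF2, fell by 0.30 and 0.55, and Hdac9 is itself a known MEF2 target. Hdac4 and Hdac7, of the same class, did not pass in limma and lay above 0. They differed by 0.19 (adjusted p = 0.0538, all mutant values above all control values) and 0.08 (adjusted p = 0.403). Hey2, an effector of Notch, fell by 0.65 with both means, 4.72 in mutants and 5.37 in controls, below the array medians, and lost its call without mutant 3 (−0.57), without controls 1 and 3 together (−0.62) and without moderated variances. Hdac9 lost its call in the last of these and without controls 1 and 3 together (−0.45), and stood at −0.31 with its probe sets averaged (adjusted p = 0.0115).

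Of 22 cofactors, 5 rose and 5 fell. Vgll3, a partner of TEAD factors, averaged 8.10 in mutants and 9.50 in controls, a change of −1.40 (SE 0.095, adjusted p = 6.9e-05). Vgll2, its muscle relative, changed by −0.94 (SE 0.19), Nfatc1, the calcineurin effector, by −0.90 and the RNA-binding protein gene Rbm24 by −0.37. With all probe sets of a gene averaged, Nfatc1 stood at −0.29 (adjusted p = 0.0089) and Rbm24 at −0.13, where it did not pass (adjusted p = 0.584). Tead2 rose by 0.33.

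Of 17 regulators that act upstream of the myogenic factors, 4 rose and 0 fell. Tcf21, which marks precursors of head muscles and fibroblasts, rose by 0.67 (SE 0.10, adjusted p = 0.0035) and Dach2, a transcriptional cofactor, by 0.55. With probe sets averaged Tcf21 stood at 0.28 (adjusted p = 0.0488), and without moderated variances Dach2 did not pass (adjusted p = 0.0511). Gli3 and Gli1, effectors of Hedgehog signalling, were called higher by 0.30 and 0.37. Of the leave-one-out fits, Gli3 kept its call in those without mutant 1 (0.33) or control 2 (0.36) only, and Gli1 in those without mutant 1 (0.43) or control 3 (0.43) only. Gli3 stood at 0.18 with its probe sets averaged (adjusted p = 0.0464). Pax3, which marks migrating muscle precursors, differed by −0.34 (adjusted p = 0.415).

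Of 33 muscle targets of the myogenic factors, 23 fell and 0 rose, with a median of −0.68. The 10 markers of differentiated muscle, of which 8 fell, are all among these 33, so the marker mean and this list are not separate observations. The fast troponin gene Tnnt3 averaged 8.92 in mutants and 10.15 in controls (log2 change −1.23, SE 0.14, adjusted p = 0.00090). Tnnc2 changed by −0.98, the calcium store gene Casq2 by −0.85 and Chrng, the embryonic acetylcholine receptor subunit, by −0.70.

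Of 21 targets of MEF2, 9 fell and 0 rose, with a median of −0.38. Ldb3, a protein of the Z-disc, averaged 8.15 in mutants and 9.56 in controls (log2 change −1.41, SE 0.15, adjusted p = 0.00063). The muscle kinase gene Srpk3 and the Z-disc gene Myoz2 changed by −1.17 each and Stac3, needed for excitation-contraction coupling, by −0.68. Srpk3 rests on a probe set whose name marks probes shared with other transcripts: with the brightest set free of that mark it stood at −0.08 and did not pass (adjusted p = 0.394), and with its sets averaged at −0.52 (adjusted p = 0.0015). Ldb3 stood at −0.93 with its sets averaged (adjusted p = 0.00056). Dlx5, Dlx6 and Hand2, which lie downstream of Mef2c in neural crest mesenchyme, did not pass, at −0.41, −0.07 and 0.03. The SE was 0.28 for Dlx5, 0.16 for Dlx6 and 0.12 for Hand2. Dlx6 averaged 4.83 in mutants and 4.90 in controls, below the array medians, so these values do not show that the genes stayed level.

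Some of these targets carry the motifs close to their start, and a few are printed with the match in capitals (RefSeq, GRCm38.p6).
Chrng, chr1:87205648-87205669, plus strand: cctgggaaCAGCTGacaatgca
Chrng, chr1:87205671-87205692, plus strand: tggtcagaCAGCTGgtggggcc
Srpk3, chrX:73774330-73774354, plus strand: ctgggaggCTATTTATAaaggcgag
Casq2, chr3:102086339-102086363, plus strand: gcatgattTATTTTTAGctcgaaac
The 250-base window of Chrng held 3 E-boxes and 0 MEF2-like matches, and those of Srpk3 and Casq2 each held 2 E-boxes and 1 MEF2-like match (in Casq2 on the other strand). Windows were found for 6 of the 8 targets named with a call. That of Myoz2 held 2 E-boxes and 3 MEF2-like matches, 2 of which overlap, and that of Tnnc2 held 2 E-boxes and 0 MEF2-like matches. The first Ldb3 window held 0 E-boxes and 2 overlapping MEF2-like matches, and the second held 0 of either. Over all windows of that length, 66.2% hold an E-box and 19% a MEF2-like match.

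**Figure D4:**
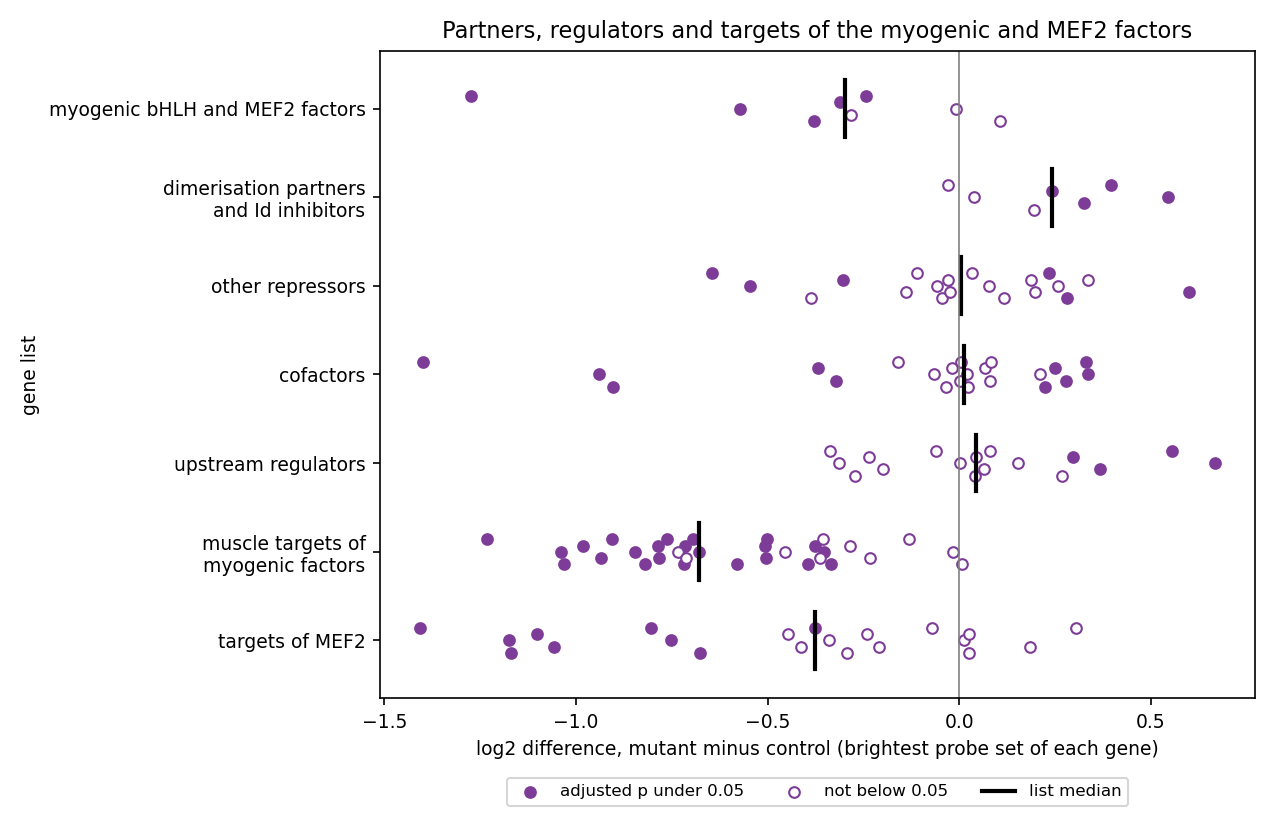
Log2 difference, mutant minus control, of the brightest probe set of each gene (horizontal axis) for the 8 members and 6 lists of related genes (rows). Each point is a gene, filled where its adjusted p over all genes was below 0.05, and the bar is the list median, which is −0.68 for the muscle targets of the myogenic factors and 0.24 for partners and Id inhibitors.

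Some markers of other cell types were also called on the same arrays. In the fit with 1 probe set a gene, 5.52% of all genes were called lower and 4.2% higher, so 1 call in a list this short shows little. Since Mef2c is also expressed by endothelium and neurons, both are given beside it. Of 10 endothelial markers 3 rose, Cdh5 by 0.51 (0.32 with its probe sets averaged), Pecam1 by 0.34 and Esam by 0.18, of which Esam passed among leave-one-out fits only without control 4, and the list mean ran from 8.13 to 8.44 in mutants and from 7.90 to 8.06 in controls. Of 9 neuronal markers 6 fell and 2 rose, with Stmn2 at −1.95 and Nefl at 1.63, and the list mean ran from 7.33 to 7.47 in mutants and from 7.68 to 7.85 in controls. Of 10 neural crest mesenchyme markers 1 rose, Prrx1 by 0.76, a call lost without controls 1 and 3 together (0.67) and without moderated variances. The changes of that list reached down to −0.41, with a median of 0.09. Its mean overlapped between the groups, at 8.99 to 9.14 in mutants and 8.85 to 9.03 in controls.

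Of 8 muscle progenitor markers, 1 fell, Itga7 by 0.41, which among leave-one-out fits passed only without control 2 (−0.50), and the list mean ran from 8.05 to 8.24 in mutants and from 8.22 to 8.36 in controls. Of 11 macrophage and leukocyte markers 4 fell (Fcgr3, Csf1r, Mrc1 and Tyrobp), of which only Fcgr3 passed without mutant 3, mutant 4, control 2 or control 4, and 2 or 3 of them in the other leave-one-out fits. Of 6 Schwann and glial markers 3 fell (S100b, Foxd3 and Sox10), of which only S100b passed without mutant 4, and 2 or 3 in the other leave-one-out fits. Sox10 did not pass with its probe sets averaged (−0.13). Of 10 epithelial markers 1 fell, Krt18 by 0.34, which passed among leave-one-out fits only without mutant 4 or control 1. Of 8 smooth muscle markers 1 fell, Cspg4 by 0.46, a call lost without control 2 (−0.43), without controls 1 and 3 together (−0.46) and without moderated variances. Of 7 erythroid markers 0 passed in limma, in either direction. Of 8 cartilage markers 1 rose, Col9a1 by 1.00, while the changes of that list reached down to −0.26, with a median of 0.05. Of 11 cell cycle genes 1 rose, Mcm2 by 0.21. Among leave-one-out fits Mcm2 passed only without control 3 (0.24), and it stood at 0.35 with the brightest set free of shared probes. The part of these cell types in the changes of the 8 factors was not tested.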

How the data were processed

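RNA of 4 mutant and 4 control tongue buds was read on one-colour arrays. The authors deposited 1 log2 value for each probe set on each array. The submitters' processing notes name RMA without version or settings. RMA aligns the distributions of the arrays, which can take out a shift shared by most genes. The table held 45101 probe sets, 64 of them Affymetrix controls, 34945 naming 1 gene, 932 several and 9160 unnamed in the platform annotation; 34754 of those naming 1 gene matched a RefSeq gene identifier. Dim probe sets were kept.

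Differences between groups came from limma 3.58.1 (R 4.3.3; two-sided, eBayes without trend or robust options, Benjamini-Hochberg adjustment), over 45037 probe sets, over 18193 genes with the brightest probe set each, and over 16752 differences between probe sets of a gene. The 28 pairs of members were tested by exact permutation over the 70 assignments of arrays. The limma fits were tested on simulated data. Of 100 log2 changes of 0.5, they recovered 63 over probe sets, 78 over genes and 45 over differences between probe sets. Of 100 changes of 1, they recovered 91, 99 and 88. A change of 0.5 or less can therefore miss the threshold. Alternatives changed the scaling, the variance model, the filter, the probe set rule, the block and the arrays left out. Named genes were the members, Tgfbr1, the 4 members of each list with the smallest p, and the 3 genes most correlated with each member. Dlx5, Dlx6, Hand2, Hdac4 and Hdac7 were added after their values were seen. The members and lists were chosen with earlier results of these data known, and the axis of spread within groups after the values were seen. Promoter windows are RefSeq's, of GRCm38.p6. Probe sets are given without coordinates.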

Additional observations from a re-analysis of the deposited data

Results flagged for a closer look

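Mutant 3 stood apart on Myog 1419391_at, with a log2 value of 12.22 against 12.38 to 12.40 on the other mutants. The gap to the nearest mutant was 0.868 of the range of the 4 mutants, above Dixon's critical value for 4 samples at 95%. It was the 1 such value among 40 groups of 4 arrays examined, where about 1 in 20 would be flagged by chance. Without mutant 3 the log2 change of Myog was −0.33 and still passed.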

How the results depend on the processing

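Labels number the samples of both groups 1 to 4, but same-numbered arrays did not deviate together (r of −0.54 to −0.11), and 0 of the 8 arrays correlated best with its own number. With the replicate number as a block, 663 probe sets, 966 genes, 4 differences between probe sets, 1 member probe set and 4 of the 8 member genes were called, against 1994, 1768, 182, 5 and 5 without it. With 1 array left out, 1116 to 1592 probe sets, 1143 to 1583 genes and 44 to 134 differences were called, with 3 to 4 member probe sets and 3 to 4 member genes; 14 to 18 member pairs did not overlap. Without controls 1 and 3 together, 1154 probe sets and 3 member genes were called. Without moderated variances these were 1229 and 2, with 3 member probe sets. With probe sets averaged by gene, 2 member genes were called and 11 pairs did not overlap. With both probe sets at or above the array medians, 42 differences passed. Among the 12 member differences 0 passed in limma in any of the 10 alternatives. Signs turned, with 0 calls, in fits with 1 array left out for Myod1 1447675_x_at (−0.13 to 0.00060), Mef2a 1421252_a_at (−0.30 to 0.015), 1427186_a_at (−0.33 to 0.14), 1425426_a_at (−0.089 to 0.024) and 1442623_at (−0.0099 to 0.11), Mef2b (−0.061 to 0.058) and Mef2d 1421388_at (−0.12 to 0.0069). They also turned without controls 1 and 3 for 1427186_a_at (0.060) and 1442623_at (−0.0020), and for Mef2b with repeated quantile normalization (0.011) and median centring (0.0090). Differences from the brightest set turned with 1 array left out for Mef2a 1421252_a_at (−0.067 to 0.37), 1427186_a_at (−0.10 to 0.49) and 1452347_at (−0.021 to 0.36), Mef2c 1421027_a_at (−0.070 to 0.34) and 1451507_at (−0.026 to 0.081), and Mef2d 1437300_at (−0.034 to 0.055). The cause of these shifts was not tested.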
